A study of Homo sapiens with 8 samples.

Results

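FLI1 occupancy was examined at 10 genes of Toll-like receptor signalling in B cells: TLR7, TLR9, TLR10, CD180, LY86, MYD88, IRAK1, IRAK4, TICAM1 and UNC93B1. The genes were chosen by function, with earlier results of these data known, out of 20163 protein coding genes of the annotation (GENCODE release 44 on GRCh37). At each gene, the promoter peak with the highest -log10 q was taken, a promoter peak being one centred within 3 kb of any transcription start site (TSS) of the gene. To these were added all peaks inside the gene whose -log10 q reached 3. FLI1, an ETS family transcription factor that binds DNA around a GGAA core, had been immunoprecipitated with a rabbit polyclonal antibody, and its bound DNA sequenced (ChIP-Seq), in the established OCI-Ly1 and VAL lymphoma cell lines, both of the germinal center B-cell (GCB) type, for which the labels name no treatment. Each line had 2 FLI1 replicates and matching input DNA, and the labels do not say whether replicates came from separate cultures. OCI-Ly1 replicate 2 (hereafter the OCI-Ly1 library) was used with both VAL replicates. OCI-Ly1 replicate 1 and the input DNA were not analysed here.

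Toll-like receptors recognise conserved microbial molecules. TLR7 senses single-stranded RNA and TLR9 senses unmethylated CpG DNA, both inside endosomes, where the membrane protein UNC93B1 delivers them. TLR10 is a surface receptor without an agreed ligand, and CD180 is a related B-cell surface receptor that needs its partner LY86 (MD-1) to reach the membrane. Most of these receptors signal through the adaptor MYD88, which assembles IRAK4 and IRAK1, kinases upstream of NF-κB, while the adaptor TICAM1 (TRIF) serves TLR3 and TLR4. In B cells the pathway drives proliferation, antibody secretion and NF-κB activity.

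A peak was called passing at a -log10 q of at least 3, a q-value of 0.001. Of the 10 genes, 4 had a passing promoter peak in at least 1 library, namely TLR9, LY86 and MYD88 in VAL replicate 2 and IRAK1 in the OCI-Ly1 library. The same held for 27.4% of all protein coding genes. No member passed in more than 1 library, and TLR7, TLR10, CD180, IRAK4, TICAM1 and UNC93B1 had no passing promoter peak in any. The share of all protein coding genes that passed in more than 1 library was not worked out. Inside the genes and beyond 3 kb of their TSS, LY86 alone had passing peaks, 2 in the OCI-Ly1 library.

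The stretches below are the 101 bases centred on the summits of the 5 passing promoter peaks, read from the plus strand of GRCh37. They are shown because each holds the short ETS core, marked in capitals as GGAA, or as TTCC where GGAA lies on the minus strand.
TLR9, VAL replicate 2, chr3:52260093-52260193: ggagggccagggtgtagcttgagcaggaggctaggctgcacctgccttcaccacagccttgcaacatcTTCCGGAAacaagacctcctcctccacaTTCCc
LY86, VAL replicate 2, chr6:6587395-6587495: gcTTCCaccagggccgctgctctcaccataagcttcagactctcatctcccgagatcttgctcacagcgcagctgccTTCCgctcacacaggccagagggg
MYD88, VAL replicate 2, chr3:38178867-38178967: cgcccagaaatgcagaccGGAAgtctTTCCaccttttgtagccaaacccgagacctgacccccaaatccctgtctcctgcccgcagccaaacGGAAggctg
MYD88, VAL replicate 2, chr3:38180497-38180597: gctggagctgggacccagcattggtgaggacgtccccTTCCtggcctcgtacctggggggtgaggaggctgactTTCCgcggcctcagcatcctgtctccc
IRAK1, OCI-Ly1 replicate 2, chrX:153285387-153285487: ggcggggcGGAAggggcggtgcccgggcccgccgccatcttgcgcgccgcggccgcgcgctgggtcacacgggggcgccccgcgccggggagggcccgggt
The TLR9 stretch holds TTCCGGAA, a palindrome that carries CCGGAA, the longer ETS core, on each strand. The minus strand match is at chr3:52260161-52260166, 18 bp from the summit, and the plus strand match overlaps it. The first MYD88 stretch holds CCGGAA on the plus strand at chr3:38178883-38178888, 34 bp from the summit. The second MYD88 stretch and the LY86 and IRAK1 stretches hold no CCGGAA. The IRAK1 peak has a match at chrX:153285653-153285658, 216 bp from its summit.

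CCGGAA on either strand thus lay within 50 bp of 2 of the 5 passing promoter summits of the members (40%, exact binomial 95% interval 5.27 to 85.3). The interval treats the 5 summits as independent, although 2 are of MYD88 in the same library. Among all passing promoter summits the share came to 48.1% for OCI-Ly1 and to 56.2% and 40.6% for VAL replicates 1 and 2. Windows of the same length 250 bp away held it in 5.93%, 5.8% and 4.42%, and windows at the canonical TSS of protein coding genes in 12.4%. GGAA alone was in 5 of 5 member windows, but also in 63.9% of the TSS windows. Among all passing promoter summits it was in 86.4% for OCI-Ly1 and in 89.0% and 83.6% for VAL replicates 1 and 2. With 5 windows, the CCGGAA interval of the members held the CCGGAA shares of all passing promoter summits and of the canonical TSS windows. It also held those of the windows 250 bp away for OCI-Ly1 and VAL replicate 1. A match describes the letters only. The IRAK1 window had a GC content of 87.1% and the TLR9 window 59.4%.

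The libraries differed in how many peaks passed. The OCI-Ly1 library listed 1107379 peaks, of which 5354 passed, while VAL replicates 1 and 2 listed 237178 and 986629, of which 973 and 6474 passed. The fewest reads at a passing summit, worked out from fold and p-value, were 6, 8 and 6 in that order. VAL replicate 1 stood apart, with a commonest local background of 0.526 reads against 0.283 for OCI-Ly1 and 0.278 for VAL replicate 2. Peaks show binding and not expression. Of the B-cell marker genes reported here, CD79A and PAX5 had a passing promoter peak in 2 libraries and CD79B in 1, while MS4A1 and CD22 had none. Among the germinal center markers, MME had one in 1 library and BCL6 had none. None of 3 T-cell markers (CD3D, CD3E, CD3G) and none of 3 monocyte markers (CD14, CSF1R, LYZ) had one. Of all protein coding genes, 27.4% had one in at least 1 library. With so few markers, these counts cannot show a difference between cell types.

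Per library, a passing promoter peak was found at 1 of 10 members in the OCI-Ly1 library, where 19.0% of protein coding genes had one. In VAL replicate 1 it was 0 of 10 members against 3.14%, and in VAL replicate 2 it was 3 of 10 against 20.8%. Each of these counts was within 1 gene of the background share. The median best -log10 q of the members, with genes lacking a listed peak set to 0, was 0.87 in the OCI-Ly1 library against 1.22 for all protein coding genes. The corresponding medians were 0.0 against 0.18 in VAL replicate 1 and 1.72 against 1.64 in VAL replicate 2. In VAL replicate 1, 4 of 10 members had any listed promoter peak (40%), against 74.9% of protein coding genes. A gene with more annotated TSS has a wider promoter window. Among the 5305 genes with 1 to 2 TSS, 9.27% passed in the OCI-Ly1 library, and 1.7% and 10.5% in VAL replicates 1 and 2. Of the 5 members in that class (TLR7, TLR9, CD180, LY86 and TICAM1), 0, 0 and 2 passed in the same order.

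**Figure D1:**
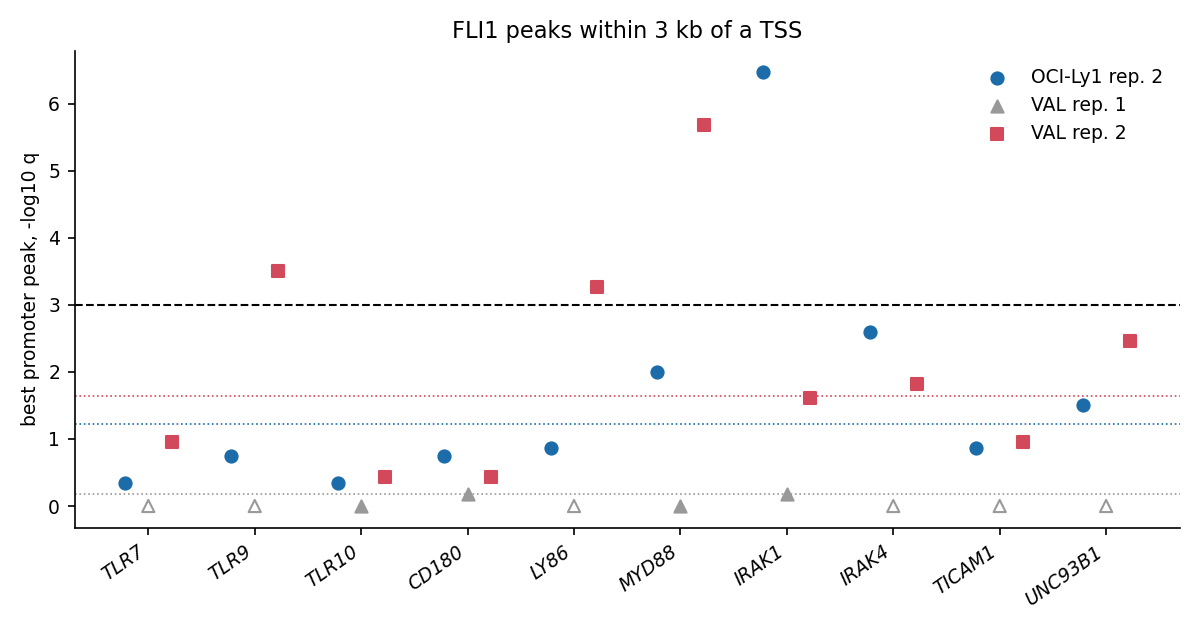
Highest -log10 q of a FLI1 promoter peak at each of the 10 genes, 1 symbol per library (open symbols: no listed promoter peak, drawn at 0). The dashed line is the threshold of 3, the dotted lines are the medians over all protein coding genes in the same library (1.22, 0.18 and 1.64), and 4 of the points lie above the threshold: IRAK1 in the OCI-Ly1 library and TLR9, LY86 and MYD88 in VAL replicate 2.

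**Figure D2:**
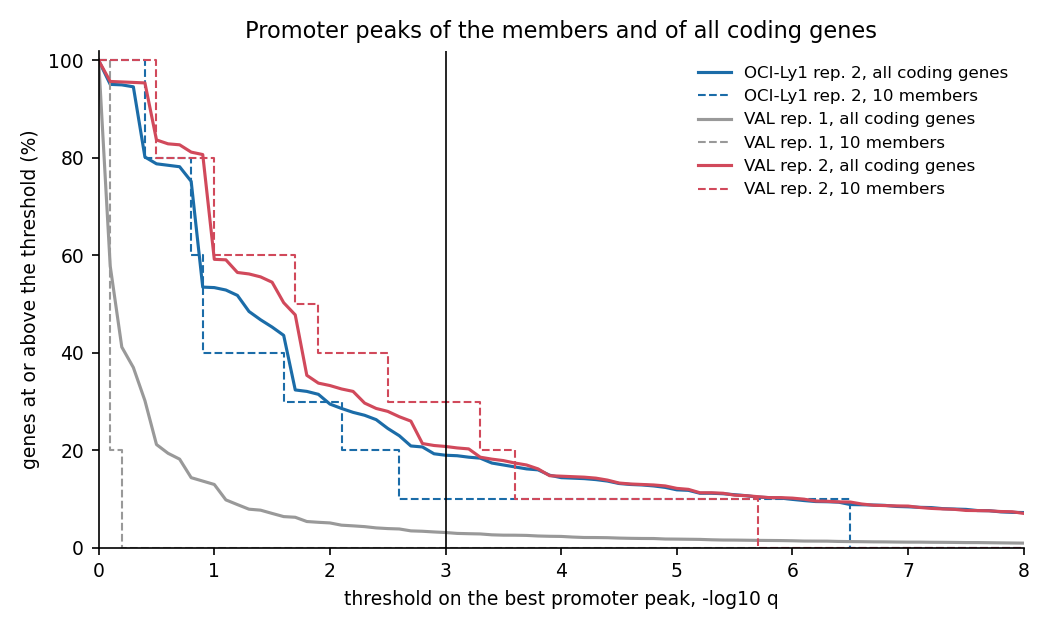
Share of genes (%) whose best promoter peak reaches the -log10 q on the x axis, for all 20163 protein coding genes (solid) and for the 10 members (dashed), in each library. At the threshold of 3, marked by the vertical line, the members stand at 1 of 10 against 19.0% in the OCI-Ly1 library and at 3 of 10 against 20.8% in VAL replicate 2.

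Among the receptors, TLR9 alone had a passing promoter peak. TLR9 (ENSG00000239732, chr3:52255096-52259661, minus strand, 1 TSS) carried it in VAL replicate 2 at chr3:52259621-52260337, with its summit 482 bp upstream of the TSS, outside the transcript. The -log10 q was 3.51 and the fold enrichment over the local background 5.28, from 6 reads at the summit (exact Poisson 95% interval 2.2 to 13.1) over a background of 0.326. In that library 17.7% of protein coding genes had a higher best promoter value. The OCI-Ly1 library listed an overlapping peak with its summit 100 bp away, at a -log10 q of 0.55 and 3 reads, and its best promoter peak of TLR9 reached 0.74. VAL replicate 1 listed no promoter peak there. The summit also lay within an annotated readthrough gene, ENSG00000173366 (chr3:52255097-52265206), which runs on the same strand through TLR9, so the peak is intragenic for that gene.

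TLR7 (ENSG00000196664, chrX:12885191-12908480, plus strand) had a best promoter -log10 q of 0.34 from 2 reads in the OCI-Ly1 library and of 0.95 from 3 reads in VAL replicate 2, and no listed promoter peak in VAL replicate 1. TLR10 (ENSG00000174123, chr4:38773859-38784611, minus strand) had 0.34 for OCI-Ly1 and 0.0 and 0.43 for VAL replicates 1 and 2, with 2 to 3 reads. UNC93B1 (ENSG00000110057, chr11:67758571-67772452, minus strand) came closer to the threshold, at 1.5 from 4 reads in the OCI-Ly1 library and 2.46 from 5 reads in VAL replicate 2, with none listed in VAL replicate 1. These UNC93B1 peaks were nearest to an internal TSS at 67763451 and not to the canonical one at 67771567. The highest FLI1 peak near any member lay 3978 bp upstream of the closest UNC93B1 TSS, outside the promoter window, and was singled out after its values were seen. In VAL replicate 2 it stood at chr11:67776229-67776631 with a -log10 q of 33.07 and 25 reads (16.2 to 36.9). In VAL replicate 1 its -log10 q was 9.82, also with 25 reads, over a background of 3.12. The OCI-Ly1 library listed a peak at that place at 0.34. The closest TSS, 382 bp from the centre in VAL replicate 2, was that of ALDH3B1, an aldehyde dehydrogenase gene. Of the 50-base stretches in the UNC93B1 gene, 19.5% occur more than once in the genome, where reads kept for a single position would be lost. The read length and the effect on these lists were not tested. The share in its promoter windows was 11.6%, in those of TICAM1 10.8%, and in those of the other members 0.739 to 6.78%.

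CD180 (ENSG00000134061, chr5:66475441-66492627, minus strand), the receptor partner of LY86, showed no passing peak at all. Its best promoter values were 0.74 in the OCI-Ly1 library, 0.18 in VAL replicate 1 and 0.43 in VAL replicate 2, on 3, 3 and 2 reads. In the OCI-Ly1 library its best peak had a summit 182 bp upstream of the canonical TSS. In VAL replicates 1 and 2 the best peaks were centred 1049 and 2733 bp from an internal TSS at 66482125, the closest one.

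LY86 (ENSG00000112799, chr6:6588341-6655216, plus strand), which encodes the secreted partner of CD180, was the only member with passing peaks both near and far from its TSS. In VAL replicate 2, the promoter peak at chr6:6587349-6587551 had a -log10 q of 3.27 and a fold of 5.2, from 7 reads (2.81 to 14.4) over a background of 0.538. Its summit lay 896 bp upstream of the first LY86 TSS and inside the overlapping antisense gene LY86-AS1, a TSS of which was 24 bp from the peak centre. The OCI-Ly1 library listed a peak with its summit 1 bp from this one, at a -log10 q of 0.87 and 4 reads (1.09 to 10.2), and VAL replicate 1 listed none. The 2 libraries that listed a peak thus placed it at the same position, with read intervals that overlapped, but only 1 passed. Such closeness was common, as 49.6% of all passing promoter peaks of VAL replicate 2 had an OCI-Ly1 summit within 50 bp.

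The passing intronic peaks of LY86 were both in the OCI-Ly1 library and both in intron 1, at chr6:6610548-6610914 (21778 bp from the nearest LY86 TSS) and chr6:6613228-6613832 (24577 bp). Their -log10 q were 3.72 and 3.82, with folds of 5.41 and 5.46 and 6 reads (2.2 to 13.1) each. VAL replicate 2 listed overlapping peaks at 0.95 with 3 reads, its summit 52 bp away, and at 1.71 with 4 reads, 133 bp away. VAL replicate 1 listed none at either. Both also lie inside LY86-AS1 (chr6:6346698-6623004), so they cannot be given to either gene. Within 50 bp of the summits, the first had GGAA or TTCC and the second had neither, and CCGGAA was in neither peak. Passing peaks inside a gene and beyond 3 kb of its TSS were found at 4.2% of protein coding genes in the OCI-Ly1 library, 0.843% in VAL replicate 1, 5.71% in VAL replicate 2 and 8.54% in at least 1 library. Longer genes have more room for such peaks, and LY86 is the longest of the members, at 66876 bp.

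**Figure D3:**
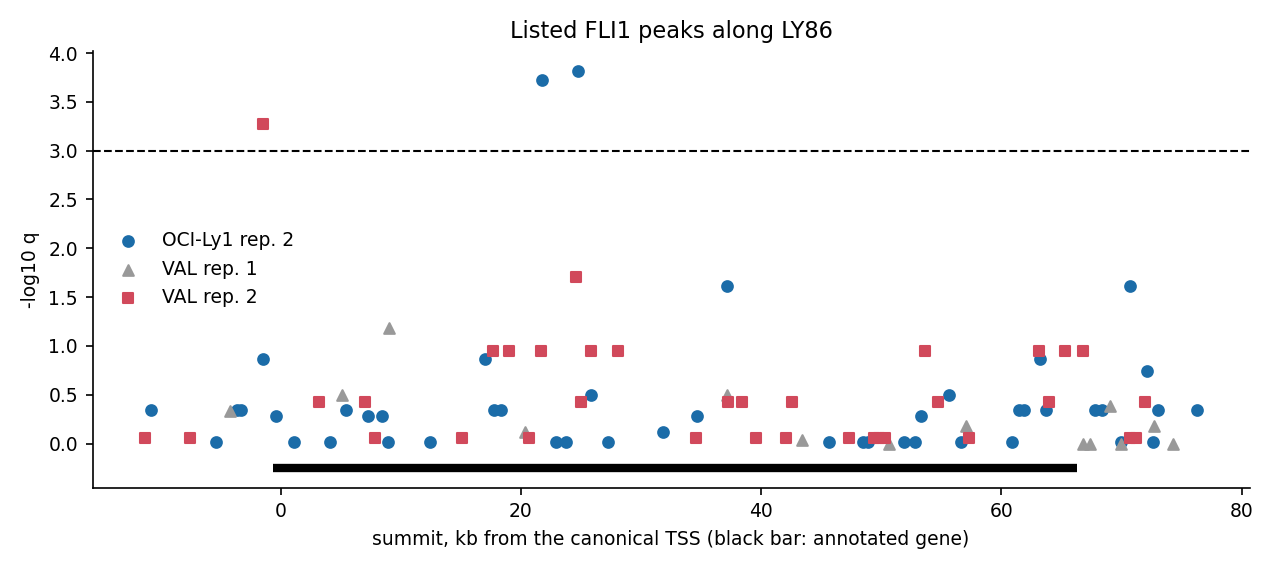
Listed FLI1 peaks along LY86, with the distance of the summit from the canonical TSS (kb) on the x axis and the -log10 q on the y axis, 1 symbol per library. The 2 intronic peaks of the OCI-Ly1 library (3.72 and 3.82) and the upstream peak of VAL replicate 2 (3.27) are the points above the dashed threshold of 3, and the black bar is the annotated gene.

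Among the adaptors and kinases, MYD88 and IRAK1 carried the highest promoter values of all members. MYD88 (ENSG00000172936, chr3:38180043-38184515, plus strand, 10 TSS) had 2 passing peaks in VAL replicate 2. The stronger, at chr3:38177824-38179247, had a -log10 q of 5.68 and a fold of 6.62, from 8 reads (3.45 to 15.8) over a background of 0.359, and 10.5% of protein coding genes were higher. Its centre was 1507 bp upstream of the first MYD88 TSS but 27 bp from a TSS of ACAA1, the divergent neighbour that encodes a peroxisomal thiolase. The second, at chr3:38179457-38180906, had its centre 20 bp from a MYD88 TSS and its summit in intron 1 of the canonical transcript. This one had a -log10 q of 3.2 and a fold of 5.11 from 6 reads (2.2 to 13.1).

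The OCI-Ly1 library listed a peak at each of these places without passing. Near the ACAA1 TSS its -log10 q was 1.12 with 5 reads, the summit 42 bp from that of VAL replicate 2. At the MYD88 TSS it listed 2 peaks, at 2.0 with 6 reads and at 1.89 with 5 reads, the summit of the latter 47 bp from the VAL one. VAL replicate 1 listed 1 peak, near the ACAA1 TSS, at a -log10 q of 0.0, where 6 reads stood over a background of 2.34.

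IRAK1 (ENSG00000184216, chrX:153275957-153285353, minus strand, 13 TSS), the kinase that IRAK4 phosphorylates, had the highest promoter value of all members. In the OCI-Ly1 library, the peak at chrX:153284991-153285864 reached a -log10 q of 6.47 and a fold of 7.02, from 8 reads (3.45 to 15.8) over a background of 0.283, and 8.97% of protein coding genes had a higher value. The summit lay 84 bp upstream of the TSS, within the MIR718 hairpin gene (chrX:153285371-153285440), whose TSS was 12 bp from the peak centre. VAL replicate 2 listed an overlapping peak at 1.61 with 4 reads, its summit 650 bp away, and VAL replicate 1 one at 0.18 with 6 reads over a background of 1.72, 181 bp away. The strongest peak of the members was therefore seen past the threshold in OCI-Ly1 but in neither VAL library.

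IRAK4 (ENSG00000198001, chr12:44152747-44192110, plus strand) and TICAM1 (ENSG00000127666, chr19:4815944-4831724, minus strand) did not pass. IRAK4 reached 2.59 in the OCI-Ly1 library from 6 reads, with its summit 28 bp upstream of the TSS, and 1.82 in VAL replicate 2 from 5 reads, and none was listed in VAL replicate 1. Within 12 kb of IRAK4, the OCI-Ly1 library and VAL replicate 2 both had a passing peak, at 5.62 and 7.7, past the end of the gene and 55 and 3 bp from a TSS of TWF1, and VAL replicate 1 listed none there. Apart from these and the peaks upstream of UNC93B1, no passing peak within 12 kb of a member lay outside its promoter windows and body. TICAM1 reached 0.87 and 0.95, each on 3 reads, with none listed in VAL replicate 1. The values just below the threshold were thus IRAK4 at 2.59 and UNC93B1 at 2.46, and the lowest that passed were LY86 at 3.27 and the second MYD88 peak at 3.2.

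**Figure D4:**
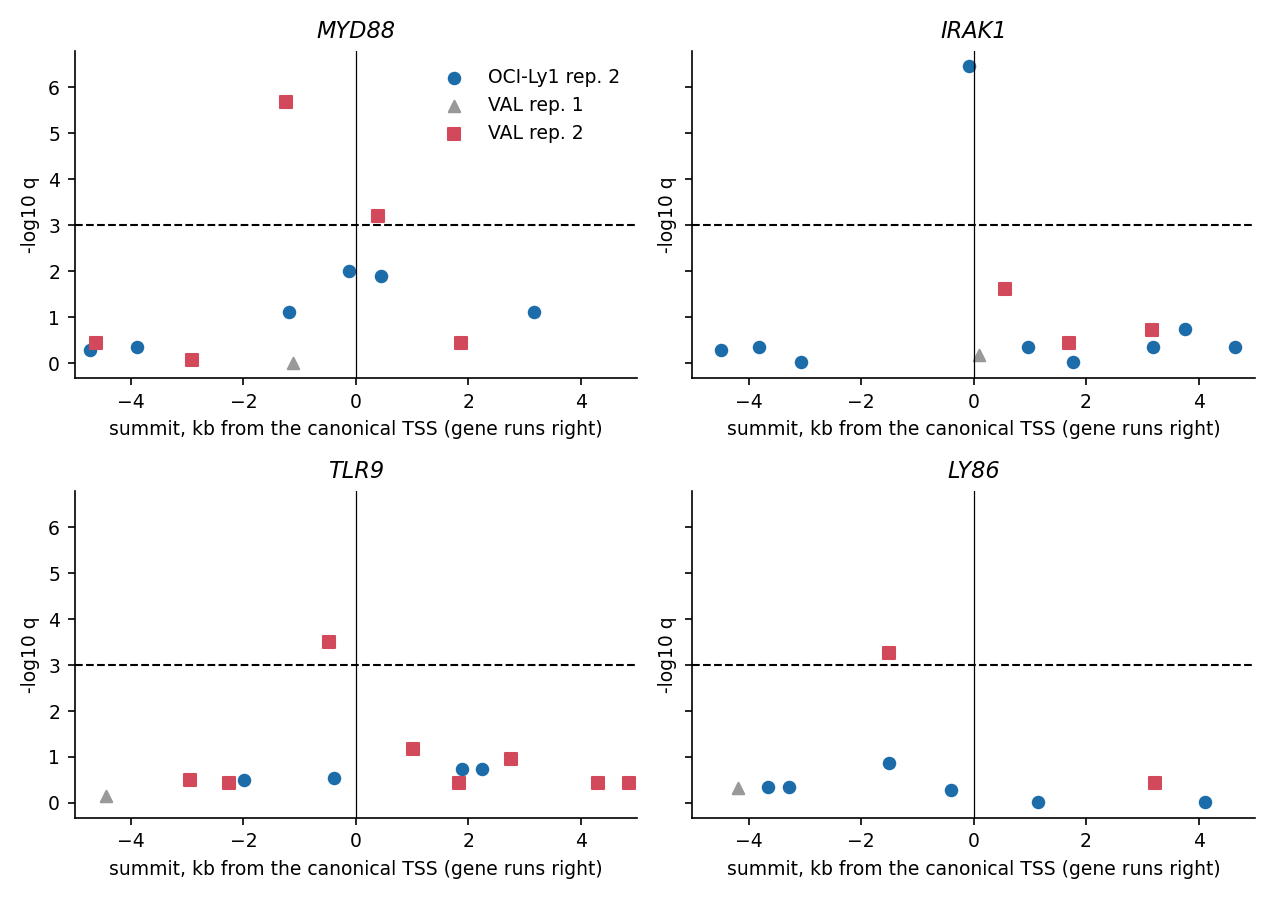
Summits of listed FLI1 peaks within 5 kb of the canonical TSS of MYD88, IRAK1, TLR9 and LY86 (x axis, kb, the gene running to the right) against the -log10 q (y axis), 1 symbol per library. For MYD88, LY86 and TLR9 the symbols of the OCI-Ly1 library lie near the passing summit of VAL replicate 2 but below the dashed threshold of 3, and at IRAK1 the passing summit is that of the OCI-Ly1 library.

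The best promoter peaks of the 10 genes rested on 2 to 8 reads. At such numbers even the extremes have intervals that overlap, 0.242 to 7.22 for 2 reads and 3.45 to 15.8 for 8, so these reads cannot show a difference between libraries. OCI-Ly1 and VAL were not tested against each other, and a gene that passed in 1 line is not shown to be free of FLI1 in the other. For comparison, VAL replicate 2 shared 49.9% of all its passing promoter peaks with the passing peaks of the OCI-Ly1 library and 92.1% with its listed ones, and for the passing promoter peaks of the OCI-Ly1 library the shares in VAL replicate 2 were 57.1% and 94.4%. Within the VAL line, replicate 2 shared 12.3% of its passing promoter peaks with the passing peaks of replicate 1 and 53.4% with its listed ones, and in the other direction the shares were 86.8% and 96.5%. VAL replicate 1 shared 83.3% of its own with the passing peaks of the OCI-Ly1 library. Of the 5 passing promoter peaks of the members, none overlapped a passing peak of another library.

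**Figure D5:**
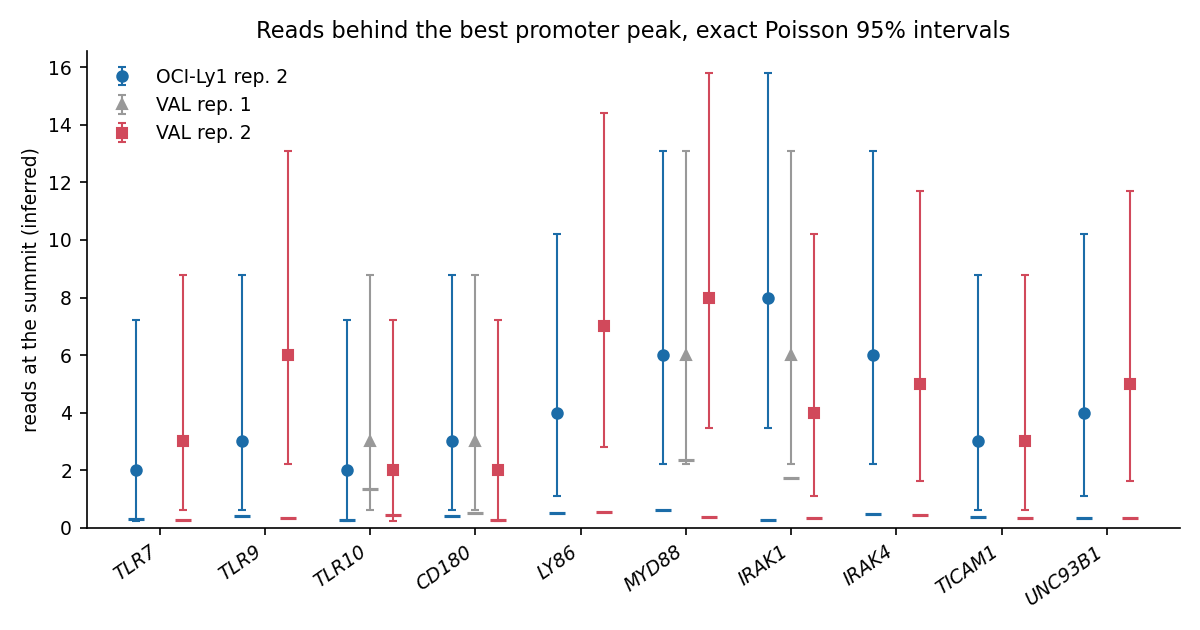
Reads at the summit of the best promoter peak of each gene, worked out from fold and p-value, with exact Poisson 95% intervals (vertical bars) and the local background (short horizontal marks), 1 symbol per library. The read numbers run from 2 to 8, so that the intervals of the libraries overlap at every gene, as they must at such low numbers.

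Of 39 other genes of the pathway, 17 had a passing promoter peak in at least 1 library (43.6%, against 27.4% of protein coding genes), 9 in the OCI-Ly1 library, 2 in VAL replicate 1 and 14 in VAL replicate 2. This list was drawn up with earlier results of these data known. Its shares and medians are therefore descriptive only, and their difference from the background was not tested. MAP3K7 (TAK1), the kinase that activates the IκB kinases, was the only one to pass in all 3 libraries, at 13.52 in the OCI-Ly1 library, 3.0 in VAL replicate 1 and 6.02 in VAL replicate 2, on 18, 14 and 8 reads. Passing in several libraries is counted here by gene, and whether the peaks of different libraries overlap was not examined. The share of all protein coding genes that pass in several libraries was not worked out. In 2 libraries, 6 genes passed. TIRAP, the adaptor that brings MYD88 to membrane receptors, did so in both VAL libraries at 3.03 and 7.0, against 1.33 in the OCI-Ly1 library. TAB2, which binds MAP3K7, reached 5.19 in the OCI-Ly1 library and 11.01 in VAL replicate 2. IKBKG (NEMO), the regulatory subunit of the IκB kinase complex, reached 12.47 and 4.42 in those libraries. TBK1, a kinase that phosphorylates IRF3, reached 3.99 and 4.55. SLC15A4, an endolysosomal transporter needed for TLR7 and TLR9 responses, reached 12.0 and 4.34. AP3B1, a sorting adaptor subunit used for TLR9 trafficking, reached 9.15 and 3.89. In VAL replicate 1 these last 5 genes stood between 0.18 (IKBKG) and 1.02 (AP3B1). Another 10 genes passed in 1 library and 22 in none, among them all 7 other Toll-like receptors (TLR1 to TLR6 and TLR8) and the coreceptors LY96 and CD14.

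Counting members and list together, 1 of the 10 Toll-like receptors, TLR9, had a passing promoter peak in at least 1 library. The share of all protein coding genes was 27.4%, and the difference, which rests on 10 genes, was not tested. The median best -log10 q of the 39 genes was 1.61 in the OCI-Ly1 library and 1.82 in VAL replicate 2, against 0.87 and 1.72 for the members, and in VAL replicate 1 it was 0.18 against 0.0. Among genes with 9 to 13 TSS, to which MYD88, IRAK1, IRAK4 and UNC93B1 belong, 25.9% passed in the OCI-Ly1 library, 4.31% in VAL replicate 1 and 28.0% in VAL replicate 2. Of those 4 members, 1, 0 and 1 passed. Several of the other pathway genes have as many TSS or more, 17 for MAP3K7 and 16 for TIRAP and for IKBKG. The part of the number of TSS in the difference between the lists was not tested.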

How the data were processed

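FLI1 ChIP-Seq peak lists of 3 libraries, 1 list per library with replicates not pooled, were analysed. The study's methods describe mapping to GRCh37 with bowtie2 and filtering with SAMtools (single position, mapping quality of 10 or more, no duplicates), whereas the submitters' processing notes name CASAVA 1.4 and BWA with hg19. HOMER is named for the peaks in the methods, but the lists have the 10 columns of a narrowPeak file, and their caller, control and settings are not given in the sources used here. The deposited fold is the ratio of the signal at the summit to the local background, as the authors' peak caller wrote it. The deposited -log10 p and -log10 q are those of the same caller for each summit.

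No deposited peak ended past the end of its GRCh37 chromosome. Reads and background at a summit were solved from the Poisson p-value together with the fold, read as (reads + 1) / (background + 1), and the 95% Poisson intervals cover counting error only. Read totals are not in the lists, so depth is known only through these values. A peak counted for every gene with a TSS within 3 kb, by its centre. No test compared libraries or lines. Sequences came from the GRCh37 genome. The members and lists were chosen with earlier results of these data known. All 10 members are named, other pathway genes where they passed in at least 2 libraries (beside counts and the receptors that did not pass), and neighbours with a TSS within 3 kb of a passing peak. ENSG00000173366, whose body holds the TLR9 summit, and ALDH3B1 and TWF1 were named after their values were seen. Some marker genes are not reported here. The steps were checked on simulated peaks. The tools were samtools 1.23.1, pysam 0.24.0, matplotlib 3.10.9, scipy 1.17.1, pandas 2.3.3, numpy 2.4.6 and python 3.11.15.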

Additional observations from a re-analysis of the deposited data

How the results depend on the processing

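Of 54 alternatives to 7 results, 43 kept their value within 1.5 times, or within the interval of a share, and 11 did not. At a -log10 q of at least 2, 3 members passed in OCI-Ly1 replicate 2 in place of 1. At a -log10 q of at least 5, 1 member passed in VAL replicate 2, 2 in at least 1 library, 10 of the 39 other pathway genes and 0 members inside the gene. With each peak given only to the gene of the closest TSS, 0 members passed in OCI-Ly1 replicate 2 and 2 in at least 1 library, since the peak of IRAK1 then went to MIR718 and that of LY86 to LY86-AS1. The stronger MYD88 peak, at 5.68, also lay closer to ACAA1, at 27 bp against 1507 bp. MYD88 was then counted only through its second peak, at 3.2, centred 20 bp from a MYD88 TSS. Leaving out each library in turn gave 1 to 4 members with a passing promoter peak, the lowest without VAL replicate 2, 10 to 17 other pathway genes, the lowest again without VAL replicate 2, and 0 to 1 members with a passing peak inside the gene, the 0 without OCI-Ly1 replicate 2. With GGAA in place of CCGGAA, 100% of the 5 member windows held the motif. No paired analysis was possible because the results come from counts of peaks with no test. Passing peaks held at least 6 to 8 reads and the best promoter peaks of the members 2 to 8.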

Other observations

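The 3' end of TLR7, more than 3 kb from any TSS of TLR7, held a listed peak in all 3 libraries, none of which passed. In VAL replicate 2 it was at chrX:12907091-12907522 with a -log10 q of 1.71 from 4 reads, and in VAL replicate 1 at chrX:12907228-12907500 with a -log10 q of 0.0 from 3 reads over a background of 1.34. These were the highest values inside TLR7 beyond 3 kb of its TSS in the VAL libraries, while OCI-Ly1 replicate 2 listed 1 read there, at chrX:12907236-12907429 with a -log10 q of 0.02, and had its highest such value, 0.34, elsewhere in the gene. Listed peaks include those of 1 read, and how often all 3 libraries list a peak at the same place was not worked out. Inside TICAM1, VAL replicate 2 listed a peak at 1.59 from 4 reads, 15169 bp from the TSS. This was higher than its best TICAM1 promoter value of 0.95. Inside LY86, the highest value of VAL replicate 1 was 1.18 from 6 reads, 8888 bp from the nearest LY86 TSS, where OCI-Ly1 replicate 2 and VAL replicate 2 had no passing peak.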
